A study of Mus musculus with 18 samples.

Results

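Acute phase proteins are plasma and secreted proteins whose levels change in inflammation. The set described here holds 8 genes of the 51290 in the count table, namely Hp, Saa3, Lcn2, Orm1, Cp, Lbp, Lrg1 and Serpina3n. They were taken by gene symbol, and all 8 were found. The members were chosen by measured values, since the set was picked because Hp had the largest increase in MPNST (malignant peripheral nerve sheath tumour) against normal nerve, so the values in that comparison are a description and carry no test.

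Poly(A) RNA from bulk tissue was sequenced in 18 mouse libraries in 3 groups of 6. The MPNST were Nf1 flox/flox Arf flox/flox PostnCre+ and, per the series' design text, came from 6 mice. The plexiform neurofibromas, benign nerve tumours, were Nf1 flox/flox PostnCre+ trigeminal nerves. The normal nerves were Nf1 flox/flox PostnCre- trigeminal nerves. All 3 groups thus carried floxed Nf1, and in both tumour groups Cre was driven by the promoter of Postn, a matrix protein gene. Neurofibromin, the product of Nf1, restrains RAS signalling, and the tumour suppressor Arf is made from the Cdkn2a locus. The labels used here give no ages and no body site for the MPNST, so malignancy, the loss of Arf and the tissue sampled cannot be told apart in any comparison with MPNST. For the trigeminal groups nothing in the labels states that the libraries came from separate animals, and p-values measure the spread between these libraries.

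In the classical acute phase response, interleukin 1 and tumour necrosis factor act through NF-kB, and cytokines of the interleukin 6 family act through the shared receptor subunit Il6st, Janus kinases and Stat3. Together with the C/EBP factors these pathways induce plasma protein genes in hepatocytes. Several of the same genes are also transcribed outside the liver. Saa3 is made by macrophages and adipocytes, Lcn2 by neutrophils and epithelia, Hp and Orm1 by adipose tissue, and Serpina3n and Cp by glia. In bulk tissue, more cells of a type and more RNA per cell cannot be told apart.

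Promoters are printed for 4 of the 5 members that had one matched. Of these 4, Saa3, Lcn2 and Lrg1 were higher in MPNST than in neurofibroma in at least 1 of the tests below, and Serpina3n was lower. Lbp, which was also higher, had no matched promoter, and Cp, not called there, is not printed. Each promoter runs 5′ to 3′ over 300 bases, 250 before and 50 after the gene's start, from RefSeq on GRCm38.p6. The positions are chr7:46715627-46715926 on the minus strand for Saa3, chr2:32387690-32387989 on the minus strand for Lcn2, chr17:56121897-56122196 on the minus strand for Lrg1 and chr12:104406458-104406757 on the plus strand for Serpina3n. Capitals mark matches, on either strand, to 5 motifs: TTNNGNAA for C/EBP, TTCNNNGAA and CTGGGAA for Stat3, GGG and CC spaced by 5 bases of any kind for NF-kB and TATAAA.
Saa3: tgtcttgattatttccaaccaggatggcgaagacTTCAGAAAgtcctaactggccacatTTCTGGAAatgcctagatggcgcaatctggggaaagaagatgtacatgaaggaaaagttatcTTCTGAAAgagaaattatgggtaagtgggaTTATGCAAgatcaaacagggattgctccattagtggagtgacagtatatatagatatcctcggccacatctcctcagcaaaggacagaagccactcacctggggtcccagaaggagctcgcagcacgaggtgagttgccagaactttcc
Lcn2: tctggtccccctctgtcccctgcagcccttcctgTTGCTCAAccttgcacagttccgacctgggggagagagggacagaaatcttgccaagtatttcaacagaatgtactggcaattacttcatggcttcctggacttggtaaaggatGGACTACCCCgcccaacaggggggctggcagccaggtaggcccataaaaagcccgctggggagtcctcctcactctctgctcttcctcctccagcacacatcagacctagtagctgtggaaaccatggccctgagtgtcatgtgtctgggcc
Lrg1: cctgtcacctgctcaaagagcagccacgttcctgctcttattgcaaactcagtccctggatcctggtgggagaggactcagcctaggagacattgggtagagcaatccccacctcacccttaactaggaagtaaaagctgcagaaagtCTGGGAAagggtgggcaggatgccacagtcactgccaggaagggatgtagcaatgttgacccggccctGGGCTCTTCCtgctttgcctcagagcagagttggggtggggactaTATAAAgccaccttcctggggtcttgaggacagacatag
Serpina3n: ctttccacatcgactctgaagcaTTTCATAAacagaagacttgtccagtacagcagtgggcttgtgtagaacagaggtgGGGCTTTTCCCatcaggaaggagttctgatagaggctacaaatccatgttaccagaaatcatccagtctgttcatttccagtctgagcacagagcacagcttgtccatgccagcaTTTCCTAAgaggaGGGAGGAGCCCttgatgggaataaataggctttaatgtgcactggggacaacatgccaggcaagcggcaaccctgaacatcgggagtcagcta

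Saa3 held 4 C/EBP matches, whose first bases lay at -216, -191, -129 and -99 from the start, and no match to the other motifs in this window. Lcn2 held 1 C/EBP match at -216 and 1 NF-kB match at -102. Lrg1 held CTGGGAA at -102, an NF-kB match at -34 and TATAAA at 12 bases past the start. In Serpina3n there were C/EBP matches at -227 and -56, and NF-kB matches on both strands that overlapped each other at -171 and -170 and at -43 and -42. Short motifs are common. Of 32851 promoters of this length, 40.7% held the C/EBP motif, 50.8% the NF-kB motif, 13.6% TATAAA, 11.1% CTGGGAA and 8.3% TTCNNNGAA. A match is a string of letters and not a site shown to be bound. RefSeq promoters were matched for 5 of the 8 members, Saa3, Lcn2, Cp, Lrg1 and Serpina3n.

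Total counts per library were 13886399 to 23652959 in MPNST, 15307987 to 20056513 in neurofibroma and 14303986 to 20335697 in nerve. Several libraries carried transcripts of other tissues, by lists that include salivary gland, pancreatic acinar and sympathoadrenal genes and that were drawn up once the libraries' contents were known. MPNST library 2 held salivary gland markers at a summed 380548 CPM (a count scaled by its library's total), against at most 312 in any other library. MPNST library 3 held skeletal muscle markers at 46868 CPM. The library labelled MPNST 6 held pancreatic acinar markers at 3009 CPM and sympathoadrenal markers at 3448 CPM. Its 1346 CPM of the sensory neuron list were nearly all Prph (688 CPM) and Snap25 (639 CPM), while Scn10a, Calca and Pou4f1 were at 0.105 to 0.367 CPM. That list summed to 1.94 to 13.7 CPM in the other 5 MPNST, 3141 to 4461 CPM in neurofibroma and 2726 to 4852 CPM in nerve. B and plasma cell markers summed to 1817 CPM in MPNST library 1, the highest library for Saa3, Orm1, Lbp and Lrg1 in CPM, and to at most 247 CPM in any other library. Nerve library 6 held astrocyte and oligodendrocyte markers at 2219 CPM, against 104 to 629 CPM in the other nerves. In the library labelled MPNST 6, Nf1 stood at 123 CPM, against 28.1 to 58.6 CPM in the other 5 MPNST. Nf1 was at 66.7 to 91.3 CPM in neurofibroma and 82.4 to 161 CPM in nerve. In TMM-scaled CPM, which corrects for the few abundant genes of MPNST library 2, the MPNST and neurofibroma ranges overlapped. They were 41.3 to 111 and 64.5 to 86.5. By the edgeR test described below, Nf1 was not called in MPNST against neurofibroma (log2 change -0.21, adjusted p = 0.478). Cdkn2a was at 692 CPM in MPNST library 4 and at 0.314 to 11.3 CPM in the other MPNST, 3.54 to 8.58 CPM in neurofibroma and 0.28 to 3.01 CPM in nerve. Whole-gene counts do not read the deleted exons, so neither gene is a strict check of the genotypes. Schwann cell markers, which define the lineage of these tumours, summed to 42.1 to 1091 CPM in MPNST, 6356 to 10883 CPM in neurofibroma and 2719 to 6451 CPM in nerve.

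The members did not move as one set. In MPNST against plexiform neurofibroma, Lrg1, Lbp and Lcn2 rose, Serpina3n fell and Cp was not called, while in neurofibroma against nerve only Cp rose among the 5 members tested. Hp, Saa3 and Orm1 were carried by a few libraries. Changes are log2 changes with their standard error (SE) from edgeR's quasi-likelihood test, and a gene was called where p, adjusted by Benjamini-Hochberg over all genes tested, was below 0.05. In MPNST against neurofibroma, 3 of the 5 tested members other than Hp were called higher, beside 25.3% of all 16537 genes, and 1 was called lower, beside 16.8%. Without MPNST libraries 2 and 6 the numbers were again 3 and 1, and without MPNST libraries 1 and 5 and neurofibroma library 1 they were 2 and 1. Their median log2 change was 3.10, and that of all genes tested was 0.22. Between neurofibroma and nerve, 1 of 5 was called higher, beside 7.94% of 16464 genes, and 0 lower, beside 6%. Their median was 0.14, and that of all genes was -0.02. The members were chosen with earlier results of these data known, and both comparisons share a group of libraries with the one used for the choice. Counts and medians set beside those of all genes are therefore a description. The filter on low counts left out Saa3 and Orm1 in both comparisons and Hp in the second.

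**Figure D1:**
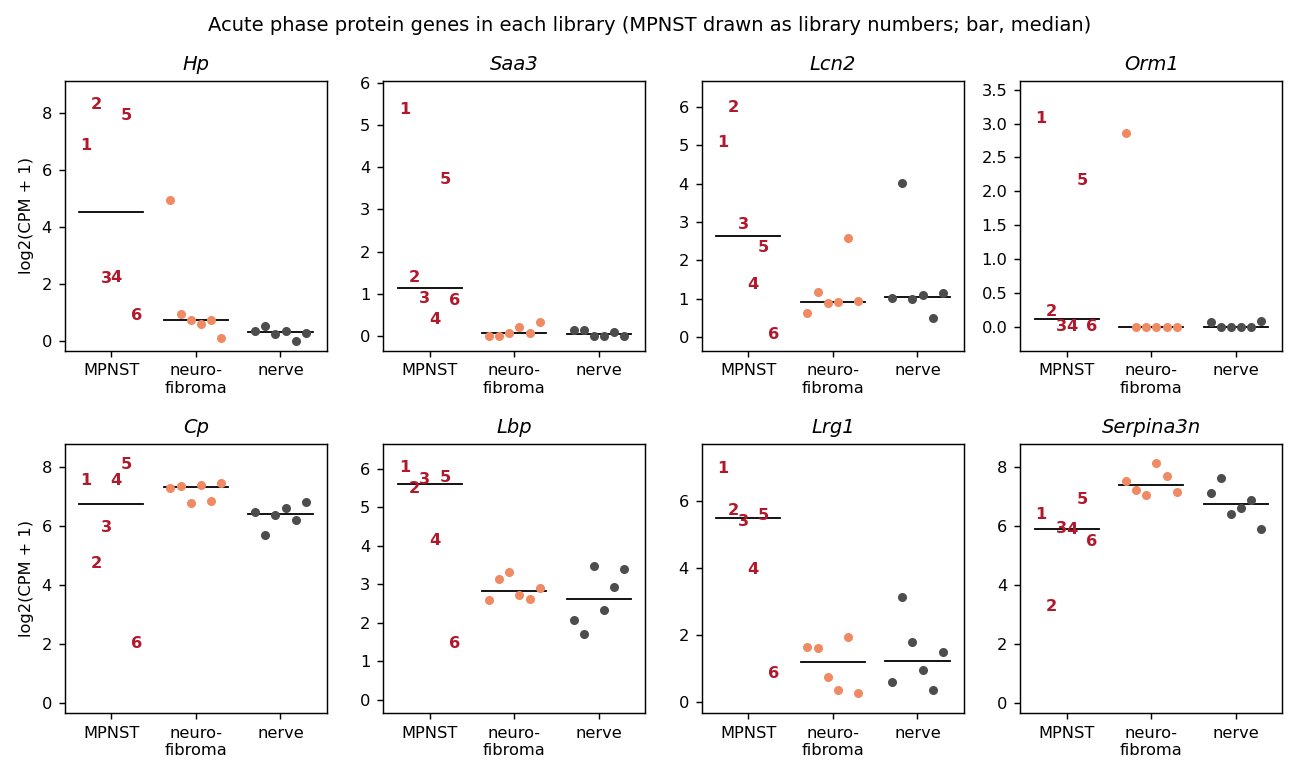
Level of each of the 8 members in each library, as log2(CPM + 1), with MPNST drawn as library numbers 1 to 6, neurofibroma and nerve as dots, and a bar at each group's median. Hp, Saa3 and Orm1 were high in a few MPNST libraries, Lbp and Lrg1 in 5 of 6, and Serpina3n was lower in all 6 MPNST than in any neurofibroma.

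Hp encodes haptoglobin, which binds free haemoglobin for uptake through the macrophage receptor Cd163. Hp stood at 115, 316, 3.58, 3.61, 238 and 0.838 CPM in MPNST libraries 1 to 6, at 29.6, 0.923, 0.665, 0.495, 0.642 and 0.0653 CPM in neurofibroma libraries 1 to 6, and at 0.255, 0.443, 0.178, 0.27, 0 and 0.196 CPM in nerve libraries 1 to 6. MPNST libraries 1, 2 and 5 lay above every neurofibroma library, and all 6 MPNST lay above every nerve, as they did for 2.88% of the genes tested, in the comparison on which Hp was picked. MPNST libraries 2 and 5 together held 81.8% of the CPM summed over the group, and the highest library was 377 times the lowest (1027 times in TMM-scaled CPM). Behind these values stood 16 to 7480 counts per MPNST library and 0 to 9 per nerve. The fitted log2 change that led to the choice of the set was 9.87 (SE 1.89) in MPNST against nerve, and against neurofibroma it was 5.35 (SE 1.95). The 2 comparisons share the MPNST libraries, so neither value is tested. Without neurofibroma library 1 the second value was 8.63, and without MPNST library 2 it was 3.68. With no filter on low counts, Hp had in neurofibroma against nerve a log2 change of 4.55 (SE 1.28, adjusted p = 0.0606, edgeR). Of the 643 Hp counts in neurofibroma, 50 lay outside library 1.

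Saa3, an inducible serum amyloid A of mouse, was at 40.5, 1.61, 0.843, 0.301, 12 and 0.786 CPM in MPNST libraries 1 to 6, and at most 0.261 CPM in any neurofibroma and 0.102 CPM in any nerve. All 6 MPNST thus lay above every neurofibroma and every nerve. All MPNST lay above every neurofibroma for 2.26% of the genes tested in that comparison, to which Saa3 did not belong. Libraries 1 and 5 held 93.7% of the group's summed CPM, and MPNST library 4 held 7 counts. With no filter on low counts Saa3 in MPNST exceeded neurofibroma by a log2 of 6.56 (SE 1.38, adjusted p = 0.00537, edgeR), and DESeq2 gave 6.69 (SE 1.19, adjusted p = 2.85e-07). Its unfiltered value in neurofibroma against nerve was 0.77 (SE 0.95, adjusted p = 0.655), on 9 counts in neurofibroma and 5 in nerve.

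Orm1 encodes orosomucoid, a lipocalin that carries small lipophilic molecules in plasma. It was at 7.42, 0.169, 0, 0, 3.46 and 0 CPM in MPNST libraries 1 to 6 and at 6.28 CPM in neurofibroma library 1. The other 5 neurofibroma libraries had 0 counts, and nerve had 2 counts over 6 libraries. Orm1 was therefore seen at more than 4 counts in MPNST libraries 1 and 5 and neurofibroma library 1. With no filter its log2 change was 0.64 (SE 1.85, adjusted p = 0.814) in MPNST against neurofibroma and 5.35 (SE 1.86, adjusted p = 0.124) in neurofibroma against nerve by edgeR. The Orm, Saa and Serpina3 genes have close relatives in the mouse genome, between which estimated counts can be split, so the values of Orm1, Saa3 and Serpina3n are uncertain in that respect.

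Adipocyte markers were high in the same 3 libraries that held Orm1. The 8 markers, of which Adipoq and Plin1 define the list, summed to 1610 CPM in MPNST library 1, 965 CPM in MPNST library 5 and 816 CPM in neurofibroma library 1. In the other MPNST the sum was 5.75 to 117 CPM, in the other neurofibromas 1.48 to 7.44 CPM, and in nerve 1.24 to 7.3 CPM. Adipoq, the adiponectin gene, was at 64.8, 46.7 and 71.2 CPM in those 3 libraries, and at most 3 CPM elsewhere. MPNST library 2, which was highest in Hp, had an adipocyte sum of 53.6 CPM and the salivary gland transcripts. Of the 3 adipocyte markers tested in MPNST against neurofibroma, 0 were called by edgeR, beside 25.3% of all genes called higher and 16.8% lower. The part of adipocytes or salivary gland in these values was not tested.

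**Figure D2:**
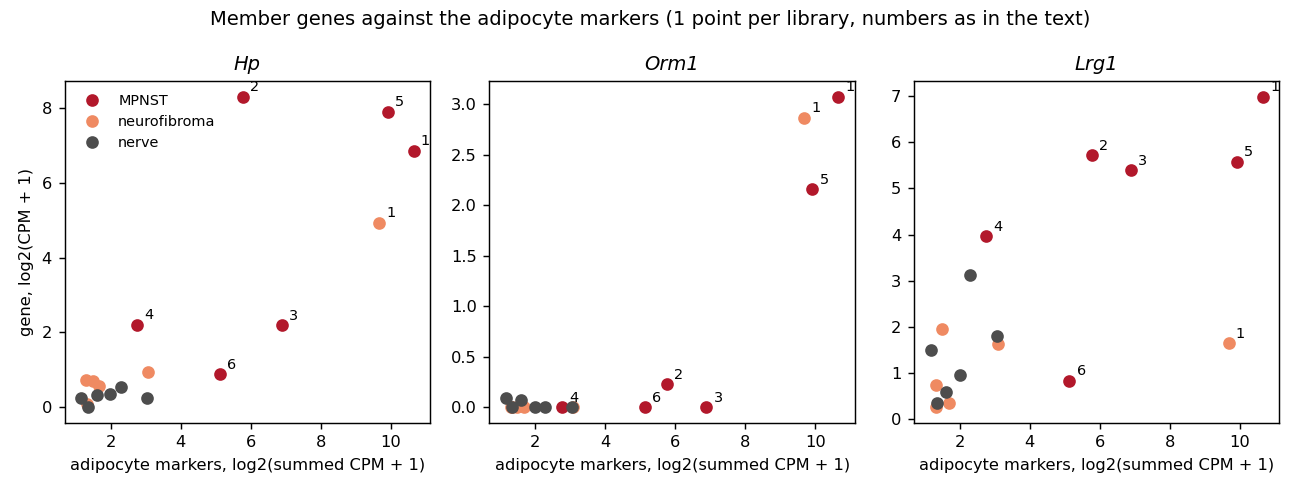
Hp, Orm1 and Lrg1 in each library, as log2(CPM + 1), against the summed level of 8 adipocyte markers, as log2(summed CPM + 1), with MPNST in red, neurofibroma in orange and nerve in grey and library numbers beside the points. Orm1 was seen above 4 counts in the 3 libraries at the right, whereas Lrg1 was high in MPNST libraries 2, 3 and 4 as well and low in neurofibroma library 1.

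Hepatocyte markers were near 0 in most libraries. Alb, the albumin gene, reached at most 0.231 CPM, and Apoa1, Fgb and Hnf4a at most 0.262 CPM in any library. Ttr, the transthyretin gene, was at 48.5 CPM in MPNST library 2 and at most 1.24 CPM elsewhere. The sum of the 10 hepatocyte markers was 0.172 to 158 CPM in MPNST, 1.34 to 112 CPM in neurofibroma and 1.33 to 3.09 CPM in nerve, and its highest values were nearly all Cyp2e1, a cytochrome P450 that adipose tissue also expresses. Cyp2e1 stood at 65.8 CPM in MPNST library 1, 157 CPM in MPNST library 5 and 110 CPM in neurofibroma library 1, and at most 3.92 CPM elsewhere. It was called higher in neurofibroma against nerve (4.31, SE 1.31, adjusted p = 0.0454, edgeR), a call that leaned on neurofibroma library 1. The other neurofibromas were at 0.7 to 3.92 CPM and the nerves at 0.458 to 1.43 CPM.

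Lrg1 and Lbp were higher across most of the MPNST libraries. Lrg1 encodes a secreted leucine-rich glycoprotein that binds the TGF-beta accessory receptor Eng. It was at 126, 51.7, 41.2, 14.6, 46.7 and 0.786 CPM in MPNST libraries 1 to 6, at 2.14, 2.08, 0.665, 0.275, 2.86 and 0.196 CPM in neurofibroma libraries 1 to 6, and at 0.51, 7.72, 2.49, 0.946, 0.28 and 1.83 CPM in nerve libraries 1 to 6. All MPNST but the library labelled MPNST 6 lay above every neurofibroma and every nerve. Lrg1 rose in MPNST against neurofibroma (log2 change 5.58, SE 1.13, adjusted p = 0.00245, edgeR), and without MPNST libraries 1 and 5 and neurofibroma library 1 the change was 5.47 (adjusted p = 0.0206). In MPNST against nerve its log2 change was 4.79 (SE 1.15), given without a test. Between neurofibroma and nerve its change was -0.76 (SE 0.79, adjusted p = 0.543), and 0.18 without nerve library 2.

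Lbp encodes the lipopolysaccharide-binding protein, which hands bacterial lipopolysaccharide to Cd14 and the Tlr4 receptor. It was at 63.7, 43.5, 51.8, 16.4, 53.9 and 1.78 CPM in MPNST libraries 1 to 6, at 5.04 to 9 CPM in neurofibroma (median 6.07) and at 2.26 to 10 CPM in nerve (median 5.28). The same 5 MPNST libraries as for Lrg1 lay above all others, and the library labelled MPNST 6 lay below them all. Lbp rose in MPNST against neurofibroma (log2 change 3.10, SE 0.72, adjusted p = 0.00535, edgeR), and its change was 2.86 without MPNST libraries 2 and 6 (adjusted p = 7.33e-05). In MPNST against nerve it was 3.24 (SE 0.79), without a test. Neurofibroma and nerve overlapped, with a log2 change of 0.14 (SE 0.34, adjusted p = 0.806).

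Lcn2 encodes lipocalin 2, which sequesters bacterial siderophores. It was at 32.8, 61.9, 6.6, 1.59, 4.03 and 0.0524 CPM in MPNST libraries 1 to 6, at 0.548, 1.27, 0.869, 0.88, 4.96 and 0.915 CPM in neurofibroma libraries 1 to 6, and at 1.02, 15.3, 1.01, 1.15, 0.419 and 1.24 CPM in nerve libraries 1 to 6. MPNST libraries 1, 2 and 3 lay above every neurofibroma, and the library labelled MPNST 6 below every one. Lcn2 rose in MPNST against neurofibroma (log2 change 4.66, SE 1.46, adjusted p = 0.0228, edgeR). The call was lost without MPNST library 2 (2.53, adjusted p = 0.0812) and without neurofibroma library 3, 4 or 6 (4.53 each, adjusted p = 0.0501 to 0.0503). Without both MPNST libraries 2 and 6 it held (2.84, adjusted p = 0.0157). Against nerve the MPNST value was 3.50 (SE 1.53), or 1.36 (SE 1.26) without MPNST library 2, without a test. The change in neurofibroma against nerve was -1.13 (SE 0.87, adjusted p = 0.397), and 0.68 without nerve library 2.

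Lcn2 is also a neutrophil granule gene. Of the defining neutrophil markers, S100a8 was at 0.262 to 4.51 CPM in MPNST, 0.173 to 3.44 CPM in neurofibroma and 0 to 3.88 CPM in nerve, and S100a9 was at 0.288 to 4.55, 0.0577 to 6.71 and 0.153 to 5.06 CPM in the same groups. Neurofibroma library 5 and nerve library 2, highest of their groups in Lcn2, were also the highest of their groups in both markers. By the sum of all 10 neutrophil markers they were not. Neurofibroma library 3 was highest at 62.8 CPM, against 25 CPM in library 5. Nerve library 3 was highest at 22 CPM, against 17.4 CPM in library 2. In MPNST library 2 the neutrophil sum of 565 CPM was nearly all Ltf, at 558 CPM, the lactoferrin gene, which salivary glands also express. Of 5 neutrophil markers tested in MPNST against neurofibroma 1 rose, beside 25.3% of all genes. It was Csf3r (1.88, SE 0.63, adjusted p = 0.0301, edgeR). Csf3r was highest in MPNST library 5 at 25.1 CPM, where S100a8 and S100a9 were each at 0.288 CPM. Some epithelial markers, namely Epcam, Krt8, Krt5 and Krt14, were highest in MPNST libraries 1 and 2, as Lcn2 was. Krt18 and Cdh1 were not. Krt18 was highest in MPNST library 4 at 247 CPM, against 197 CPM in library 2 and 38.2 CPM in library 1. Lcn2 was at 1.59 CPM in MPNST library 4. Cdh1 was at 27.5 CPM in MPNST library 5 and 20.4 CPM in library 1. MPNST library 3, above every neurofibroma in Lcn2 at 6.6 CPM, had the group's lowest sum of epithelial markers, 2.88 CPM. Epcam stood at 21.5, 138, 0.211, 2.23, 3.82 and 9.9 CPM and Krt8 at 24.4, 112, 0, 1.72, 0 and 1.83 CPM in MPNST libraries 1 to 6, so that libraries 1 and 2 were highest in both, as in Lcn2. In neurofibroma Epcam was at most 4.24 CPM and Krt8 at most 3.89 CPM, and in nerve they were at most 0.458 and 0.769 CPM. Of the 3 epithelial markers tested in MPNST against neurofibroma 2 rose, beside 25.3% of all genes, and Cdh1 was not called. They were Epcam (6.20, SE 1.81, adjusted p = 0.0164) and Krt8 (5.69, SE 1.96, adjusted p = 0.0345). The filter on low counts left out both in neurofibroma against nerve. Here they passed it through the MPNST libraries, so a call of lower was hardly possible. The sum of the 6 epithelial markers was 2.88 to 551 CPM in MPNST, 206 to 225 CPM in neurofibroma and 127 to 229 CPM in nerve, most of it Cdh1 in both trigeminal groups. The part of neutrophils and of epithelium in the level of Lcn2 was not tested.

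Serpina3n and Cp were not called higher in MPNST. Serpina3n encodes a secreted inhibitor of serine proteases. It was at 82.3, 8.62, 59.6, 57.8, 117 and 42.9 CPM in MPNST libraries 1 to 6, at 183, 148, 131, 280, 207 and 142 CPM in neurofibroma libraries 1 to 6, and at 137, 197, 82.5, 97, 117 and 58.3 CPM in nerve libraries 1 to 6. Every MPNST lay below every neurofibroma, with and without TMM scaling, as did 16.2% of the genes tested. Serpina3n fell in MPNST against neurofibroma (log2 change -1.47, SE 0.33, adjusted p = 0.00466, edgeR). In MPNST against nerve it was -0.84 (SE 0.38), without a test. Its change in neurofibroma against nerve was 0.66 (SE 0.27, adjusted p = 0.123), and without nerve library 2 it was 0.88 (adjusted p = 0.0418).

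Cp encodes ceruloplasmin, a copper-carrying ferroxidase. It was at 187, 25.4, 61.2, 187, 271 and 3.04 CPM in MPNST libraries 1 to 6, at 154, 164, 108, 166, 115 and 176 CPM in neurofibroma libraries 1 to 6, and at 87.2, 50.6, 82.3, 96.7, 73.3 and 112 CPM in nerve libraries 1 to 6. In MPNST 3 libraries lay above every neurofibroma and 3 below. In neurofibroma against nerve Cp rose by a log2 of 0.81 (SE 0.18, adjusted p = 0.0134, edgeR), with 5 of 6 neurofibromas above the highest nerve. A single fit of all 18 libraries gave 0.84 with adjusted p = 0.806 and called 2 genes in all. Between MPNST and neurofibroma Cp differed by a log2 of -0.17 (SE 0.65, adjusted p = 0.854), or 0.09 without the library labelled MPNST 6. Against nerve the MPNST value was 0.65 (SE 0.65), without a test. Most listed markers of glia and neurons fell in MPNST against neurofibroma, as Serpina3n did, beside 16.8% of all genes. Of 6 markers in each list 4 fell for Schwann cells (median -2.79), 4 for astrocytes and oligodendrocytes (median -4.29) and 4 for sensory neurons (median -6.93). None of these lists had a member that rose. The Schwann cell markers Sox10 (-0.51, adjusted p = 0.561, edgeR) and Erbb3 (-0.13, adjusted p = 0.883) were not called. Gfap, Slc1a2, Snap25 and Prph were not called either, though every MPNST lay below every neurofibroma for Snap25 and Prph. The astrocyte and oligodendrocyte sum was 2.75 to 93.6 CPM in MPNST, 125 to 929 CPM in neurofibroma and 104 to 2219 CPM in nerve. The part of these cells in the fall of Serpina3n and in the level of Cp was not tested.

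**Figure D3:**
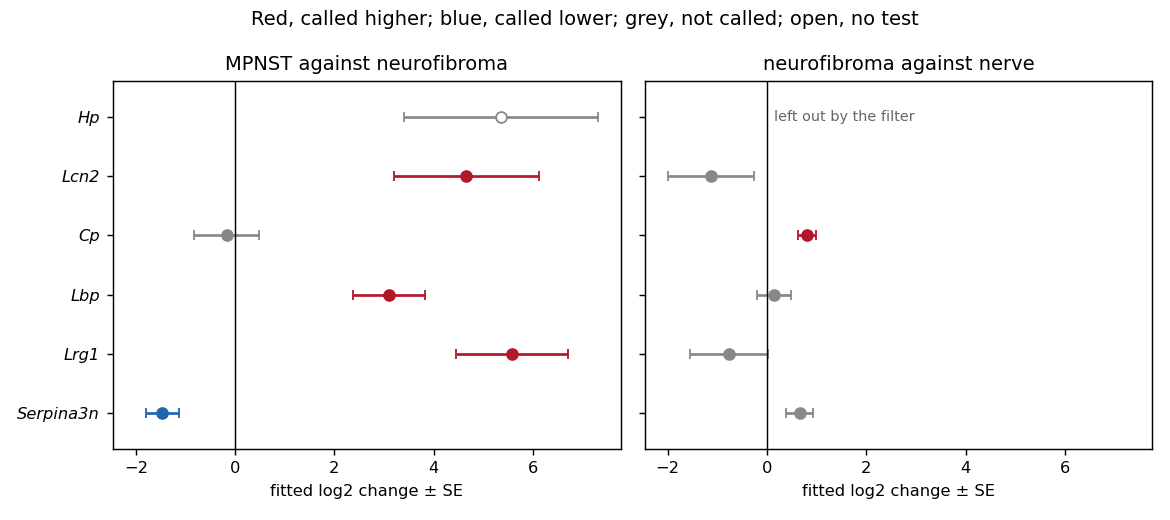
Fitted log2 change with its standard error for 6 members, in MPNST against neurofibroma on the left and neurofibroma against nerve on the right, on one scale. Lcn2, Lbp and Lrg1 were called higher and Serpina3n lower in MPNST, Cp was called higher in neurofibroma, Hp is drawn open because it is not tested, and Saa3 and Orm1 were left out by the filter on low counts.

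The library labelled MPNST 6 was the lowest of its group, or tied at 0, for 6 of the 8 members, all but Saa3 and Serpina3n. Across the 6 MPNST libraries the ratio of the highest to the lowest CPM was 1182 for Lcn2, 377 for Hp, 160 for Lrg1, 135 for Saa3, 89.3 for Cp, 35.8 for Lbp and 13.6 for Serpina3n. In TMM-scaled CPM, which corrects for the few abundant genes of MPNST library 2, it was 3218 for Lcn2, 1027 for Hp, 66.5 for Lbp and 4.91 for Serpina3n, and 179, 137 and 87.7 for Lrg1, Saa3 and Cp. The genes whose pattern over the 18 libraries was most like Hp, by Pearson's r of log2(CPM + 1) among 11847 genes, were Bcat2 (0.91), Retnla (0.90), Cfd (0.89), Dennd2d (0.89) and Slc37a2 (0.88). Bcat2 encodes the mitochondrial branched-chain aminotransferase and Cfd encodes adipsin, a protease secreted by adipocytes. Over the 6 MPNST libraries alone r was 0.99, 0.82, 0.81, 0.93 and 0.85 in that order. Among the members r with Hp over 18 libraries was 0.80 for Lrg1, 0.75 for Saa3, 0.74 for Lbp, 0.73 for Orm1, 0.65 for Lcn2, 0.11 for Cp and -0.45 for Serpina3n. These r values use CPM without TMM scaling, which understates most genes of MPNST library 2, and no ranking on scaled values was made. The points share groups and libraries, so these values describe likeness only.

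Other acute phase protein genes, 30 in a list written with earlier results of these data known, were called at shares near those of all genes in MPNST against neurofibroma. There 4 of 18 tested rose, 2 fell and 12 were not called, beside 25.3% of all genes that rose and 16.8% that fell, and the median was 0.76, against 0.22 for all genes. Cfb, complement factor B, was at 127, 7.65, 50.5, 7.21, 292 and 3.82 CPM in MPNST libraries 1 to 6 and 0 to 3.04 CPM in neurofibroma, and rose (5.67, SE 1.21, adjusted p = 0.00337). Timp1 and the complement gene C3 were among the others that rose. A2m, alpha-2-macroglobulin, fell (-5.92, SE 0.97, adjusted p = 0.000735), with at most 2.57 CPM in MPNST against 26.1 to 41.9 CPM in neurofibroma. Serpina3i, a relative of Serpina3n, fell as well (-2.51, SE 0.33, adjusted p = 0.000198). Of 15 tested in neurofibroma against nerve, 3 rose and 0 fell, beside 7.94% and 6% of all genes. They were the complement gene C4b (1.81, SE 0.32, adjusted p = 0.00543), the pentraxin Ptx3 (2.95, SE 0.54, adjusted p = 0.00595) and the metalloproteinase inhibitor Timp1 (2.26, SE 0.42, adjusted p = 0.00639).

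Of 12 cytokines that induce acute phase genes, 5 were tested in MPNST against neurofibroma, where 2 rose and 1 fell, beside 25.3% and 16.8% of all genes. Clcf1, a cytokine of the interleukin 6 family, rose (3.72, SE 0.83, adjusted p = 0.00437), as did Il1b (2.44, SE 0.71, adjusted p = 0.016). Cntf, a neurotrophic member of the interleukin 6 family made by Schwann cells, was at 0 to 5.13 CPM in MPNST and 135 to 235 CPM in neurofibroma, and fell (-6.20, SE 0.82, adjusted p = 0.000187). The count of 2 that rose was 4 without MPNST libraries 2 and 6 or without the library labelled MPNST 6 alone, and 1 without MPNST libraries 1 and 5 and neurofibroma library 1. Il6 itself was at most 1.37 CPM in any library and did not pass the filter. Cntf rose in neurofibroma against nerve (1.29, SE 0.27, adjusted p = 0.0105), and Il1b had a change of 1.83 (SE 0.69, adjusted p = 0.0893).

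Of the 12 cytokine receptors and kinases, 5 rose and 1 fell in MPNST against neurofibroma, beside 25.3% and 16.8% of all genes, with a median of 0.76 against 0.22 for all genes. The Janus kinase Tyk2 rose (1.48, SE 0.29, adjusted p = 0.00207) and Lifr, a receptor of the interleukin 6 family, fell (-2.12, SE 0.35, adjusted p = 0.000803). Without MPNST libraries 1 and 5 and neurofibroma library 1 the numbers were 2 and 1, without MPNST libraries 2 and 6 they were 9 and 2, and without the library labelled MPNST 6 alone 9 rose. Of the 12, 1 rose and 0 fell in neurofibroma against nerve, a share near the 7.94% of all genes that rose. It was the tumour necrosis factor receptor Tnfrsf1a (0.60, SE 0.18, adjusted p = 0.0472), and Il1rap had a change of 0.58 (SE 0.18, adjusted p = 0.0517).

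Among 13 tested transcription factors and regulators of the response, 9 rose and 0 fell in MPNST against neurofibroma, beside 25.3% and 16.8% of all genes, with a median of 1.49 against 0.22 for all genes. The kinase Pim1, a target of Stat3, rose (2.01, SE 0.27, adjusted p = 0.00022), and so did Cebpb (2.60, SE 0.48, adjusted p = 0.00154). Cebpb was at 61.2, 29.7, 72.6, 50.2, 54.9 and 6.65 CPM in MPNST libraries 1 to 6 and 7.64 to 13.2 CPM in neurofibroma. Stat3 had a change of -0.08 (SE 0.17, adjusted p = 0.712). The count of 9 was 4 without MPNST libraries 1 and 5 and neurofibroma library 1, and 12 without MPNST libraries 2 and 6. Between neurofibroma and nerve 4 of 13 rose and 0 fell, beside 7.94% and 6% of all genes, among them Relb (0.92, SE 0.22, adjusted p = 0.0174) and Cebpd (1.17, SE 0.30, adjusted p = 0.023). That count was 1 without neurofibroma library 4, nerve library 4 or nerve library 5.

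**Figure D4:**
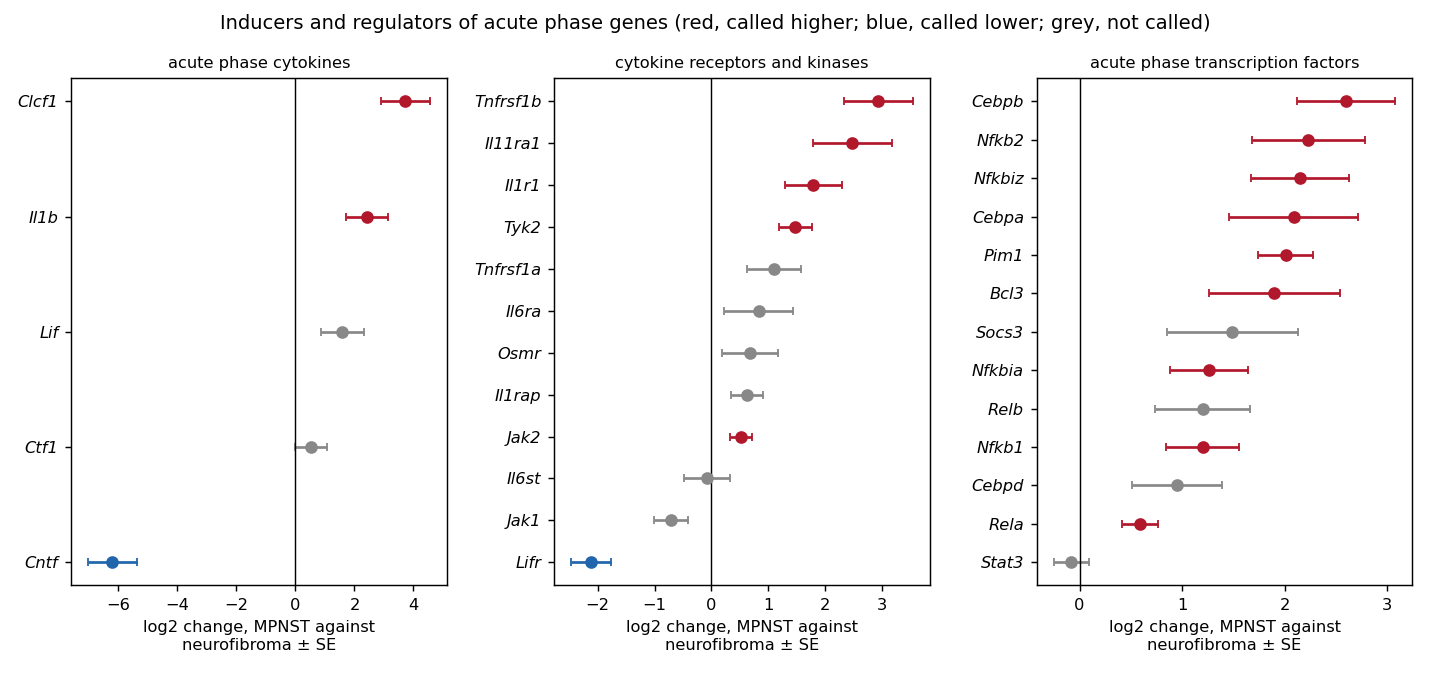
Fitted log2 change in MPNST against neurofibroma, with its standard error, for the tested cytokines, cytokine receptors and kinases, and transcription factors of the acute phase response. Clcf1 and Cebpb head their panels, Cntf and Lifr were called lower, and Stat3 was at -0.08.

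Receptors and partners of the member proteins formed another list. In MPNST against neurofibroma 10 of 16 tested rose and 1 fell, beside 25.3% and 16.8% of all genes, with a median of 1.96 against 0.22 for all genes. Eng, the receptor partner of Lrg1, rose (2.33, SE 0.48, adjusted p = 0.00285), as did Scarb1, a lipoprotein receptor that binds serum amyloid A (1.48, SE 0.33, adjusted p = 0.00454). Cd14 and Tlr4, on the Lbp pathway, and Cd163, on the Hp pathway, were among the others that rose. The call of Tlr4 was near the threshold (1.27, SE 0.48, adjusted p = 0.0496, edgeR). The other 5 tested, Acvrl1, Tgfbr2, Hmox1, Lrp1 and Lrp2, were not called. Slc22a17, a receptor for Lcn2, fell (-1.84, SE 0.42, adjusted p = 0.00473). The count of 10 was 5 without MPNST libraries 1 and 5 and neurofibroma library 1, and 14 without MPNST libraries 2 and 6. Of the 16, 3 rose and 0 fell in neurofibroma against nerve, beside 7.94% and 6% of all genes, among them the haem oxygenase gene Hmox1 (0.99, SE 0.19, adjusted p = 0.00658) and Acvrl1 (0.74, SE 0.20, adjusted p = 0.0277).

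Some markers of macrophages, endothelial cells and fibroblasts rose along with the lists above, beside 25.3% of all genes. Cd163 is an entry of both the macrophage list and the receptors and partners, so those lists are not separate. All 8 macrophage markers rose in MPNST against neurofibroma, and their sum was 131 to 2588 CPM in MPNST, 117 to 258 CPM in neurofibroma and 35.9 to 179 CPM in nerve. MPNST library 5 was the highest and the library labelled MPNST 6 the lowest. Of 7 endothelial markers 3 rose and 4 were not called, among them Cldn5 (-0.88, SE 0.42, adjusted p = 0.111, edgeR). The endothelial sums were 86.8 to 551 CPM in MPNST, 93.5 to 142 CPM in neurofibroma and 96.7 to 179 CPM in nerve. Of 7 fibroblast markers 4 rose, and 3 were not called, namely Pdgfra, Dcn and Lum. The fibroblast sums were 572 to 12106, 1181 to 2744 and 137 to 1074 CPM in the same groups. The part of macrophages, endothelial cells and fibroblasts in the changes of the members and of the lists above was not tested.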

How the data were processed

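The table that the authors deposited holds estimated counts for each gene, some of them fractional, without normalization. The tools named in the submitters' processing notes are FastQC, Salmon 1.4.0 and DESeq2, and the build is GRCm39. Which annotation, options and read trimming they used is not given in the sources used here. Per the labels' protocols, libraries were stranded and made from poly(A) RNA. Counts were rounded to whole numbers, and CPM was computed from each library's total, without gene lengths, so levels are not compared between genes. A few genes take much of MPNST library 2 (54.44% in the 10 highest), so its CPM understates other genes; fitted changes use TMM-scaled library sizes. Counting error is 31.6% of a value at 10 counts, 10% at 100 and 3.16% at 1000. No library was a duplicate of another (lowest chi-square per degree of freedom within a group 18.8). The numbers of libraries follow accession order and pair nothing.

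Each pair of groups was fitted on its own in R 4.3.3 by the two-sided quasi-likelihood test of edgeR 4.0.16 (TMM scaling, filterByExpr, glmQLFit and glmQLFTest), and genes were called at an adjusted p below 0.05. The SE is the absolute log2 change divided by the square root of F. The code was tested on simulated data. Any pair of the 3 comparisons shares 1 group of libraries. The members and the 20 other lists (194 entries, 193 found; Muc19 was not found) were chosen with earlier results of these data known. Named were all 8 members, the 2 genes of smallest p per list and comparison, the leading called gene in a minority direction, the first markers of a cell type list, Nf1, Cdkn2a and the 5 genes most like Hp; other genes were chosen after their values were seen. Alternatives were RLE normalization, other filters, DESeq2 1.42.0, limma-voom (limma 3.58.1), one fit of all 18 libraries, an adjusted p below 0.01 and leaving out libraries; the fits without MPNST libraries 1 and 5 and neurofibroma library 1 were added after seeing the data.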

Additional observations from a re-analysis of the deposited data

Results flagged for a closer look

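Of 24 sets of 6 libraries (8 genes in 3 groups), 6 held a library that stood apart by Dixon's test at the 95% level. Chance gives about 1 in 20 where values are normally distributed. The CPM used here are skewed and some are 0, so that rate need not hold. For Orm1 in neurofibroma, with 5 libraries at 0, any count in the remaining library would have been flagged. Hp was at 29.6 CPM in neurofibroma library 1, next to 0.923 CPM, and Orm1 was at 6.28 CPM in the same library, next to 0; that library also held adipocyte markers. Saa3 was at 40.5 CPM in MPNST library 1, next to 12 CPM. Lcn2 was at 4.96 CPM in neurofibroma library 5, next to 1.27 CPM, and at 15.3 CPM in nerve library 2, next to 1.24 CPM. Lrg1 was at 7.72 CPM in nerve library 2, next to 2.49 CPM.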

How the results depend on the processing

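No paired analysis was possible because the labels give no replicate numbers. Lbp, Lrg1 and Serpina3n in MPNST against neurofibroma kept their direction and call in 21 of 21 alternatives, with log2 changes of 2.57 to 3.35, 5.07 to 6.17 and -1.89 to -1.15. Of the members other than Hp, 4 were called there, and 3 to 5 on leaving out 1 library (2 to 4 higher, 1 lower). Lcn2 lost its call in 5 of 21, the fifth being the fit without MPNST libraries 1 and 5 and neurofibroma library 1 (4.75, adjusted p = 0.0692), where the untested change of Hp was 8.70. The change of Cp turned positive with limma-voom (0.02), without the library labelled MPNST 6 (0.09), without MPNST libraries 2 and 6 (0.23) and without 2, 3 and 6 (0.48), and leaving out any 1 library gave -0.47 to 0.09; against nerve it was -0.06 without MPNST libraries 1 and 5. In neurofibroma against nerve the 1 member called, Cp, became 2 with limma-voom, which added Serpina3n (0.71, adjusted p = 0.0417), 0 in one fit of all 18 libraries and 0 at an adjusted p below 0.01; leaving out 1 library gave 1 to 2, with 2 without nerve library 2. Without that library Lcn2 was at 0.68, Lbp at -0.03 and Lrg1 at 0.18, each opposite in sign; leaving out any 1 library gave -1.94 to 0.68 for Lcn2, -0.03 to 0.34 for Lbp and -1.10 to 0.18 for Lrg1. Of the 5 other lists, one fit of all 18 libraries called 0 genes in neurofibroma against nerve; without nerve library 6 and neurofibroma library 1, 3 cytokine receptors and kinases rose and 2 fell. The receptors and partners that rose numbered 1 without neurofibroma library 2, 4 or 6 or nerve library 4 or 5; other acute phase proteins that rose numbered 5 without neurofibroma library 3. In MPNST against neurofibroma 4 other acute phase proteins fell without MPNST library 1. The cause was not tested for any of these.

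Over all genes, 1307 were called higher and 988 lower in neurofibroma against nerve. Limma-voom gave 2113 and 1913, the joint fit 2 and 0, and an adjusted p below 0.01 gave 359 and 161; DESeq2 called 1607 lower and no filter 537 lower. Without nerve library 6 and neurofibroma library 1, 1664 were lower. In MPNST against neurofibroma, 4176 were higher and 2772 lower; limma-voom called 5040 lower, and 4928 and 5525 were lower without MPNST libraries 2 and 6 and without 2, 3 and 6. Without MPNST libraries 1 and 5 and neurofibroma library 1, 2575 were higher, and at an adjusted p below 0.01, 2314 were higher and 1749 lower. RLE moved the median of all genes by at most 0.08. Depth limits Saa3 and Orm1 most, with 9 and 126 counts over all neurofibromas and 5 and 2 over all nerves.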
